A study of Mus musculus with 6 samples.

Results

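Naive mouse embryonic stem cells (mESCs) are held in their state by a small set of transcription factors, and 10 of these are described here, *Nanog*, *Sox2*, *Pou5f1*, *Esrrb*, *Klf2*, *Klf4*, *Klf5*, *Tfcp2l1*, *Tbx3* and *Prdm14*. They were taken by gene symbol from count tables that list 24393 features each, and all 10 were found. All 10 also passed the filter on low counts that left 13846 genes for testing. RNA was sequenced from KH2 mESCs in 3 control and 3 *HOXA13*-overexpressing cultures, which the study calls biological replicates, to ask what forced expression of *HOXA13* does to undifferentiated cells. *HOXA13* is a homeobox gene of posterior body identity.

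KH2 cells are mESCs made for placing a transgene under doxycycline control at a chosen genomic site. The labels give the strain of every culture as C57/BL/6 and state that no treatment was applied, and their extraction notes call the cells de-differentiated. All 6 cultures were kept in medium with LIF and serum on irradiated 3T3-Swiss albino feeder cells, so feeder RNA can be among the counts. The overexpressing cells carry human *HOXA13* with a FLAG tag, and the study describes picking targeted clones by their response to doxycycline over 3 days. How many clones the 3 cultures stand for, what the control cells carry and whether either group met doxycycline before sequencing are not given in the sources used here.

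*Pou5f1* (OCT4) and *Sox2* bind DNA side by side and, with *Nanog*, form the core of the pluripotency network. LIF feeds this core through STAT3 and other branches, in which *Klf4*, *Tfcp2l1* and *Tbx3* are known relays, while *Esrrb* is held down by the repressor TCF7L1 and *Prdm14* dampens FGF signalling and DNA methylation. *Pou5f1* and *Sox2* stay on as cells move from the naive towards the primed state, whereas *Klf4*, *Tfcp2l1*, *Tbx3*, *Esrrb* and *Prdm14* are turned down.

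Library totals ran from 14608681 to 21766589 counts in control and from 13494135 to 20374341 counts in *HOXA13*-overexpressing cultures. Levels are given as CPM, TMM-scaled counts relative to library size, and a floor for reading a level was set at 3 counts, which lay between 0.134 and 0.227 CPM per library. That floor covers counting error only. The feature ENSG00000106031, a human Ensembl identifier that the tables do not pair with a symbol, had 6, 0 and 0 counts in control replicates 1, 2 and 3 and 4298, 4177 and 2881 counts in the *HOXA13* replicates. Of the 13846 tested genes, edgeR called 1994 higher and 1842 lower with a threshold of 0.05 on the adjusted p. With library size alone as the scaling, the split was 1576 higher and 2500 lower, and the median of all genes moved by -0.07 on the log2 scale. Control replicate 2 stood apart from the other controls over the 10 factors, as described further on, and the change of each factor is given with and without it. It was singled out by the levels of these same factors, so the values without it are no separate support.

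Promoters are shown for 3 of the factors, *Nanog* and *Tfcp2l1* as factors called higher in every setting tried, and *Pou5f1* as the one with the smallest change. Each window is the 250 bases before a start site in RefSeq (table build GRCm38.p6), placed on mm9 by exact match, and none of the 3 overlaps an annotated exon. RefSeq windows were matched for 7 of the 10 factors, and *Klf5*, *Tbx3* and *Prdm14* had none in the table used. The windows lie on the + strand at chr6:122657257-122657506 (*Nanog*), chr17:35642727-35642976 (*Pou5f1*) and chr1:120524272-120524521 (*Tfcp2l1*). Capitals mark a joint site for SOX and octamer factors in *Nanog* (on the opposite strand), a GC box in *Pou5f1* and a TATA box in *Tfcp2l1*.
Nanog: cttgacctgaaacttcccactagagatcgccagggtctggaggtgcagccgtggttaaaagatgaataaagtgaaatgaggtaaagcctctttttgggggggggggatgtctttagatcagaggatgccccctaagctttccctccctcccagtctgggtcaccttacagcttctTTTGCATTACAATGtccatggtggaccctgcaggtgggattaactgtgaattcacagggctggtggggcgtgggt
Pou5f1: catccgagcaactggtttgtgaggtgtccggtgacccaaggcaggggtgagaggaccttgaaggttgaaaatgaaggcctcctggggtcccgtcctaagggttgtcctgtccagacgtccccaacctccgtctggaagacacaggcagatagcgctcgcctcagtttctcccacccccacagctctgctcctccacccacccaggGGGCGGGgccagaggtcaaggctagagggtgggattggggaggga
Tfcp2l1: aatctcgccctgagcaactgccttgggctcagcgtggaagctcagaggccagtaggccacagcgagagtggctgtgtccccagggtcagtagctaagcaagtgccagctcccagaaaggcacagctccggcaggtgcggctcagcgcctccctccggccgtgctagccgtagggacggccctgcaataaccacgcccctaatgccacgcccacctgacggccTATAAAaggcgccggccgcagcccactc

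The joint site was searched on both strands as CATTGT, then any 1 base, then ATGCAAA from the octamer. Among 32851 promoter windows of 27025 genes it was found in 2, both of them *Nanog* windows, 75 and 151 bases before its 2 start sites. Since those windows overlap, this is a single stretch of DNA. The GC box GGGCGGG, bound by SP and KLF proteins, was in the windows of *Klf2*, *Klf4*, *Pou5f1* and *Sox2* and in 23.4% of all windows. TATAAA, the TATA box, was 28 bases before the start of *Tfcp2l1* and was found in 12.4% of all windows. No window of the 7 factors held the full octamer ATGCAAAT (1.60% of all windows), the KLF motif GGGTGTGG (3.20%), the ESRRB motif TCAAGGTCA (0.387%) or the HOXA13 forms CCAATAAA (1.02%) and CTCGTAAA (0.11%). The octamer shares 7 letters with the joint site, and these matches are to letters only.

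Across the 10 factors, 7 were higher in *HOXA13*-overexpressing cultures with an adjusted p below 0.05 (edgeR quasi-likelihood test, Benjamini-Hochberg adjustment over all 13846 genes), none was lower and 3 did not pass. For comparison, 14.4% of all tested genes were called higher, 13.3% lower and 27.7% in either direction. The factors were chosen with earlier results of these data known, so this comparison is a description and not a test. The same 7 factors had every *HOXA13* library above every control library, a pattern shown by 23.5% of all tested genes. The median log2 fold change was 0.73 over the 10 factors and 0.00 over all tested genes. With unadjusted p under 0.05 the counts were also 7 higher and 0 lower, and DESeq2 gave 5 higher and 0 lower and limma-voom 7 higher and 0 lower. The count of 7 depended on single libraries, being 9 without control replicate 2, 4 without control replicate 3, 4 without *HOXA13* replicate 1, 3 without *HOXA13* replicate 2 and 3 without *HOXA13* replicate 3. Without a *HOXA13* replicate the log2 fold changes of *Sox2*, *Esrrb*, *Klf4* and *Prdm14* stayed near those with all 6 libraries. Their adjusted p rose, as given below for each.

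**Figure D1:**
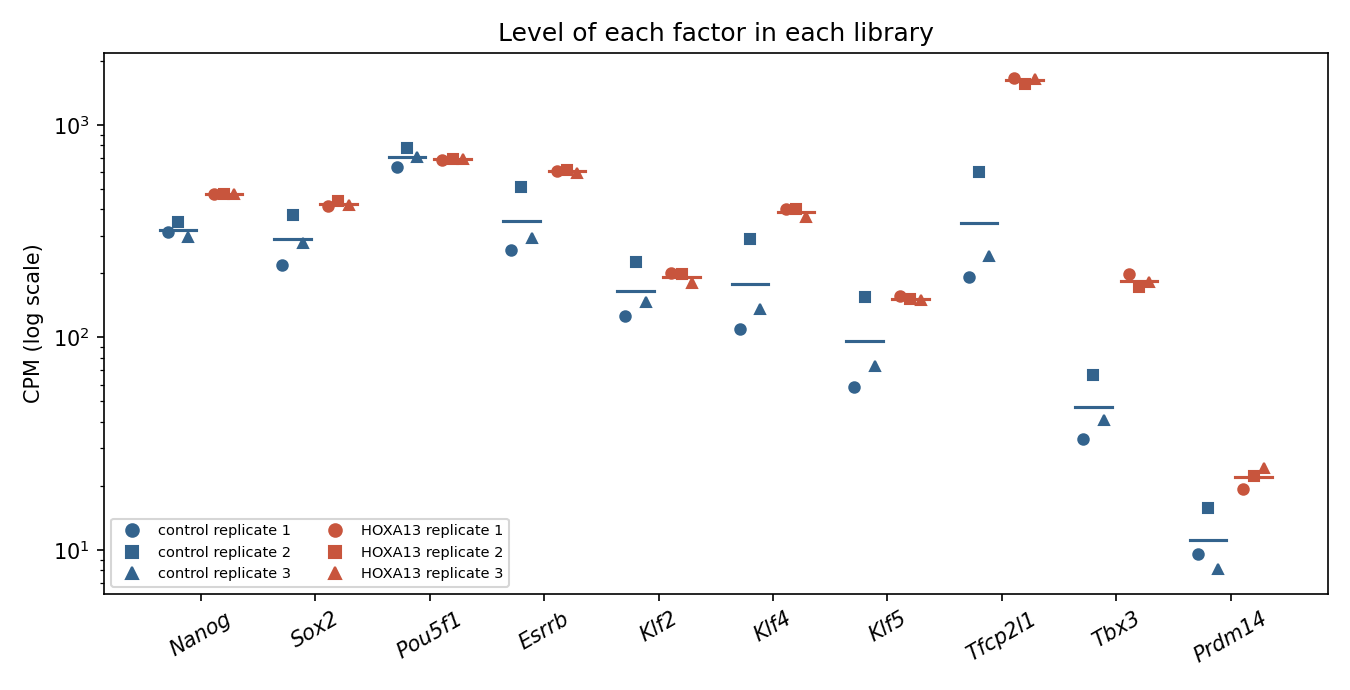
CPM on a log axis for each of the 10 factors, with 1 symbol per library (control in blue, HOXA13 in red, symbol shape for the replicate number) and a line at the mean of 3 libraries. Control replicate 2 is the highest control for all 10 factors, and the 3 HOXA13 libraries lie close together.

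The plot of levels by library shows the width of the control group against the narrow *HOXA13* group. The standard deviation of log2 CPM was larger in control than in *HOXA13* for 10 of 10 factors, with medians of 0.51 and 0.05. Over the 9910 genes with a mean log2 CPM of at least 3, the medians were 0.13 and 0.07, and the control value was the larger for 73.5%.

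*Tfcp2l1*, a CP2-family factor downstream of LIF and STAT3, showed the greatest change of the 10 in the fit used throughout. This was not so with each chromosome centred on its own median. Its gene lies on chromosome 1 of mm9 from 120524522 to 120581744 on the + strand, and 130 of its exon bases are shared with the small RNA genes annotated as 5S_rRNA (- strand) and U1 (+ strand). Control replicates 1, 2 and 3 had 192, 598 and 241 CPM, and the *HOXA13* replicates had 1669.8, 1565 and 1636 CPM. Control replicate 2 lay between the other controls and the *HOXA13* libraries, and the groups did not overlap. *Tfcp2l1* rose by 2.24 on the log2 scale (standard error 0.38, adjusted p = 0.00401), which is 4.73-fold with a 95% interval from 2.58 to 8.68. Without control replicate 2 the log2 fold change was 2.90. In bulk RNA, a lower level of *Tfcp2l1* in control cannot be told apart as fewer cells with the transcript or less transcript per cell, and the same holds for every factor here. Of the 13846 tested genes, 113 had a larger log2 fold change.

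The median log2 fold change over the 778 tested genes of chromosome 1 was 0.38, and 56.2% of them were called. Where along the chromosome these genes lie was not examined. *Tfcp2l1* and *Prdm14* lie on it. With each chromosome centred on its own median in each library, *Tfcp2l1* was at 1.91 and *Prdm14* at 0.64 on the log2 scale, and both stayed called (adjusted p = 0.00294 and 0.0406). *Tbx3* was at 2.02 in this setting, above *Tfcp2l1*. Chromosome 14, which carries *Klf5*, had a median of 0.26, and the medians of the other factors' chromosomes lay between -0.03 and 0.02.

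*Tbx3*, a T-box factor in a LIF branch through PI3K, was second in size of change in the fit used throughout. Its difference from *Tfcp2l1* was not tested. It lies on chromosome 5 from 120120678 to 120134733 on the + strand, and 115 of its exon bases are shared with *Gm2301* on the other strand. The control replicates had 33.4, 66.8 and 40.7 CPM, and the *HOXA13* replicates had 199, 173 and 182 CPM. Every *HOXA13* library was more than 2 times as high as every control. *Tbx3* rose by 1.98 on the log2 scale (standard error 0.23, adjusted p = 0.000636), or 3.96-fold with an interval from 2.76 to 5.67.

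The KLF family members bind overlapping GC-rich sites and can stand in for one another in mESCs. Differences between their changes were not tested. *Klf4*, a direct STAT3 target on chromosome 4 from 55540013 to 55545347 on the - strand, had 109, 289.5 and 136 CPM in the control replicates and 401, 401 and 371 CPM in the *HOXA13* replicates. Control replicate 2 was more than double the other controls, yet stayed under all *HOXA13* libraries. *Klf4* rose by 1.14 on the log2 scale (standard error 0.31, adjusted p = 0.0297). The call was lost without control replicate 3 (0.98, adjusted p = 0.108) and in DESeq2 (1.13, adjusted p = 0.0522). It was also lost without any single *HOXA13* replicate (1.12 to 1.175, adjusted p from 0.0783 to 0.109). Without control replicate 2 *Klf4* was at 1.67 (adjusted p = 5.42e-06). Parts of the *Klf4* transcript matched 3 other places in mm9 (the longest over 1218 bases at 92.0% identity), so its reads could be split by the mapping.

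*Klf5*, on chromosome 14 from 99697910 to 99712624 on the + strand, had 58.3, 155 and 73.5 CPM in the control replicates and 156, 151 and 149 CPM in the *HOXA13* replicates. Control replicate 2 lay within the *HOXA13* range, while the other controls were below it. *Klf5* had a log2 fold change of 0.67 with a 95% interval from -0.04 to 1.39, which did not pass the test (adjusted p = 0.146). Without control replicate 2 it was 1.20 and called (adjusted p = 3.18e-05). *Klf2*, on chromosome 8 from 74842932 to 74845555 on the + strand, had 126, 225 and 146 CPM in the control replicates and 200.1, 198 and 180.0 CPM in the *HOXA13* replicates. Here control replicate 2 was above all *HOXA13* libraries and the other controls below them. *Klf2* had a log2 fold change of 0.22, with an interval from -0.22 to 0.66 (adjusted p = 0.431), and 0.49 without control replicate 2 (adjusted p = 0.00183).

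Among the core factors, *Nanog* had the tightest values. This homeobox gene lies on chromosome 6 from 122657507 to 122664651 on the + strand, right behind the promoter printed above. The control replicates had 312, 348 and 296 CPM, and the *HOXA13* replicates had 473, 472 and 472 CPM. All *HOXA13* libraries were above all controls, with a gap larger than the spread within either group. *Nanog* rose by 0.57 on the log2 scale (standard error 0.07, adjusted p = 0.000951), or 1.48-fold with an interval from 1.33 to 1.66, and it was called in all 15 alternatives. A stretch of 1290 bases matched 1 other place in mm9 at 97.4% identity, so reads from that copy and from *Nanog* could be confused.

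*Sox2*, the HMG-box partner of OCT4, is a single-exon gene on chromosome 3 from 34548927 to 34551383 on the + strand, inside the long RNA gene *Sox2ot* without shared exon bases. The control replicates had 219.9, 376 and 279 CPM, and the *HOXA13* replicates had 414, 440.4 and 418 CPM. The groups did not overlap, although control replicate 2 came close to the lowest *HOXA13* library. *Sox2* rose by 0.54 on the log2 scale (standard error 0.17, adjusted p = 0.0431), just inside the threshold. It was not called without control replicate 3 or without any single *HOXA13* replicate (adjusted p from 0.11 to 0.134 over these 4 cases). The log2 fold change lay between 0.51 and 0.56 in these cases. With library size alone as the scaling *Sox2* was not called either (0.47, adjusted p = 0.0563), while without control replicate 2 it was at 0.76 (adjusted p = 0.000346).

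*Pou5f1*, which encodes OCT4, had the highest level per length of the 10 and was not called. It lies on chromosome 17 from 35642982 to 35647721 on the + strand. The control replicates had 633, 783 and 704 CPM, and the *HOXA13* replicates had 685, 694 and 692 CPM. The *HOXA13* libraries all lay inside the control range. *Pou5f1* had a log2 fold change of -0.03 (adjusted p = 0.795), with a 95% interval of the fold from 0.859 to 1.11. A stretch of 385 bases of *Pou5f1* had 1 further match in mm9 at 100% identity.

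*Esrrb*, an orphan nuclear receptor that can replace *Nanog* function in part, lies on chromosome 12 from 87702067 to 87862578 on the + strand. The control replicates had 257, 511 and 294 CPM, and the *HOXA13* replicates had 608, 613 and 596 CPM. Control replicate 2 was far above the other controls and still below the *HOXA13* libraries. *Esrrb* rose by 0.78 on the log2 scale (standard error 0.22, adjusted p = 0.0349), or 1.71-fold. Like *Klf4*, it was not called without control replicate 3 or without any single *HOXA13* replicate (adjusted p from 0.0942 to 0.123 over these 4 cases). The log2 fold change was 0.66 without control replicate 3 and 0.77 to 0.79 without a *HOXA13* replicate. In DESeq2 it was 0.77 and also not called (adjusted p = 0.0626), and without control replicate 2 *Esrrb* was at 1.13 (adjusted p = 8.77e-06).

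*Prdm14*, a PR-domain repressor, was the lowest of the 10 and lies on chromosome 1 from 13103538 to 13117244 on the - strand. The control replicates had 9.54, 15.8 and 8.08 CPM, and the *HOXA13* replicates had 19.3, 22.3 and 24.3 CPM. The groups did not overlap, and the level was well above the floor in every library. *Prdm14* rose by 1.00 on the log2 scale (standard error 0.23, adjusted p = 0.015), or 1.99-fold with an interval from 1.38 to 2.88. Leaving out *HOXA13* replicate 2 or *HOXA13* replicate 3 ended the call, at 0.98 and 0.92 on the log2 scale (adjusted p = 0.06 and 0.0637). Leaving out control replicate 2 gave 1.30 (adjusted p = 0.000154).

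**Figure D2:**
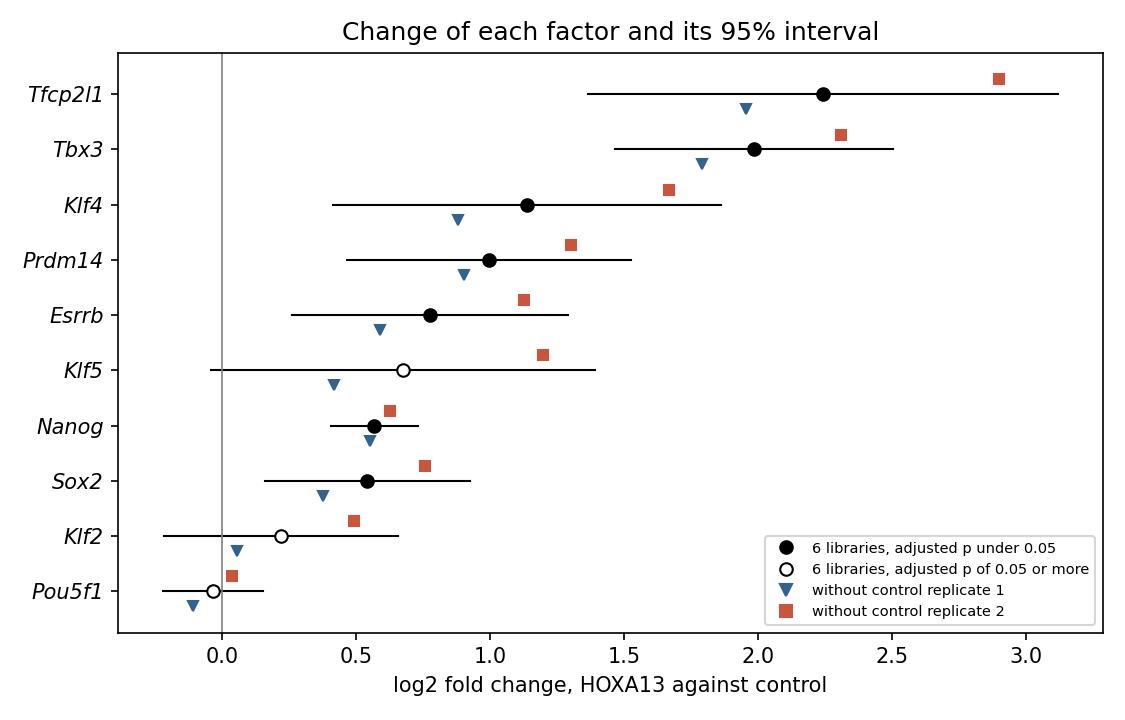
Log2 fold change of each factor, HOXA13 against control, with edgeR's 95% interval over 6 libraries (filled circles at an adjusted p under 0.05, open circles otherwise), and the value without control replicate 1 (blue triangles) or without control replicate 2 (red squares). Each red square lies to the right of its circle, and Tfcp2l1 moves from 2.24 to 2.90.

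The plot of changes with their intervals orders the factors from *Tfcp2l1* to *Pou5f1*. Leaving out control replicate 2 moved the change upwards for each of the 10, and leaving out control replicate 1 moved it downwards. Control replicate 2 was the highest control for all 10, so the upward move follows from which library was left out. Without control replicate 2, *Tbx3* was at 2.31, *Nanog* at 0.63 and *Pou5f1* at 0.04. The call of *Nanog*, *Tfcp2l1* and *Tbx3* was kept in all 15 alternatives tried.

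The control libraries themselves differed over these factors. As the plot of levels showed, control replicate 2 was the highest control throughout. Control replicate 1 was the lowest for 8 and control replicate 3 for the other 2, *Nanog* and *Prdm14*. Against the mean of the *HOXA13* libraries, the median log2 difference over the 10 factors was -1.22 for control replicate 1, -0.34 for control replicate 2 and -1.04 for control replicate 3. Over the 10 factors, control replicate 2 differed from control replicate 3 by a root mean square of 0.83 on the log2 scale and from the *HOXA13* libraries by 0.68 to 0.73. Its distance to control replicate 1 over the 10 factors was 1.03. Over all genes control replicate 2 differed by 0.41 from control replicate 1, by 0.26 from control replicate 3 and by 0.46 to 0.48 from the *HOXA13* libraries. Control replicates 1 and 3 differed by 0.26 over the 10 factors and by 0.27 over all genes, so control replicate 2 stood apart over the factors but not over all genes, where the widest gap among controls was between replicates 1 and 2. By contrast, the *HOXA13* libraries differed among themselves by 0.08 to 0.13 over the 10 factors.

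**Figure D3:**
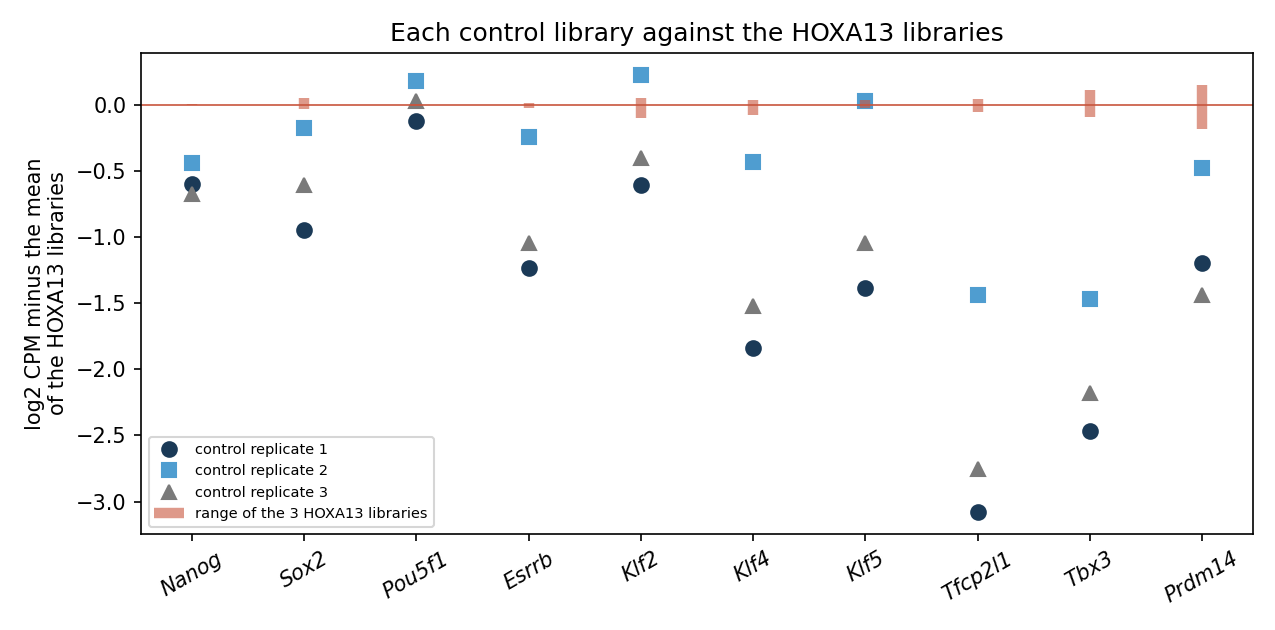
Log2 CPM of each control library minus the mean of the HOXA13 libraries, for each factor, with the range of the 3 HOXA13 libraries as a red bar at 0. Control replicate 2 lies nearest to 0 for 9 factors, and control replicate 3 does so for Pou5f1.

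The plot of control libraries shows distances down to -3.08 for *Tfcp2l1* in control replicate 1. Mesendoderm genes, which mark cells leaving pluripotency towards mesoderm and endoderm, moved along with these differences. The summed level of the 12 listed genes was 439, 40.6 and 190 CPM in control replicates 1, 2 and 3 and 20.9 to 23.8 CPM in *HOXA13*, so the control with the highest levels of the factors had the lowest sum. *T*, which encodes brachyury, had 181, 10.5 and 85.2 CPM in the control replicates and 1.37, 2.48 and 2.27 CPM in the *HOXA13* replicates (log2 fold change -5.53, adjusted p = 0.00519). *Fgf8* had 42.9, 2.92 and 18.4 CPM in control and at most 1 count in each *HOXA13* library, at least 118-fold lower from the control mean to the floor of 3 counts in each library. This bound was 58.9-fold without control replicate 1, and from control replicate 2 alone it was 16.1-fold. Of the 8 tested genes of the list, 5 were lower and 0 higher (62.5% and 0%, beside 13.3% lower and 14.4% higher over all tested genes). The median log2 fold change was -3.44, the same with *Fgf8* at its bound. Limma-voom called 0 lower, DESeq2 6 lower and edgeR without control replicate 2 called 10 lower of the genes then tested, and unadjusted p under 0.05 gave 5 lower and 0 higher. Without 1 of the *HOXA13* replicates edgeR called 2 to 3 lower, *T* and *Fgf8* among the called in all left-out cases. *Mesp1* and *Cer1* of the list, named here because they were at 0 in every *HOXA13* library, were at 1.74, 0 and 0.707 CPM and at 0.0892, 0 and 0 CPM in the control replicates and were too low to be tested. *Cer1* was under the floor of 3 counts in every library. Also too low to be tested was *Lhx1*, with 12.0, 0.136 and 1.82 CPM in control and 0, 0 and 0.0756 CPM in *HOXA13*. *Sox17*, likewise untested, went the other way, with 0.0446, 0.068 and 0 CPM in control and 0.254, 0.055 and 0.378 CPM in *HOXA13*. The part of such cells in the differences of the 10 factors was not tested.

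Feeder markers were also compared, since KLF genes are used by fibroblasts as well. The summed level of 15 fibroblast genes was 4651, 7216 and 7084 CPM in the control replicates and 6595 to 8180 CPM in *HOXA13*, and none of the 15 was at 0 in all libraries. In edgeR 0 of the 15 were called in either direction, with 1 higher and 0 lower at an unadjusted p under 0.05. DESeq2 called 1 higher and 0 lower, and limma-voom 0. Without control replicate 1 the calls were 1 higher and 1 lower, and without control replicate 2 they were 2 higher and 0 lower. The part of feeder RNA in the values of *Klf2*, *Klf4* and *Klf5* was not tested.

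To compare levels between genes, CPM was divided by the kilobases of exon in GENCODE on mm9. Per length, *Pou5f1* led in control with 313 ± 33.2 CPM per kilobase (SD, n = 3), above *Nanog* with 142 ± 11.8 and *Sox2* with 119 ± 32.0. *Klf2* followed with 89.8 ± 28.4, then *Esrrb* with 58.5 ± 22.7, *Klf4* with 58.2 ± 31.8, *Klf5* with 55.6 ± 30.4 and *Tfcp2l1* with 37.1 ± 23.9. From *Nanog* to *Tfcp2l1* the ranges of neighbours in this order overlapped, but the libraries moved together, and each neighbour in this order was above the next in 3 of 3 control libraries, except *Esrrb* and *Klf4*, which kept it in 2 of 3. *Tbx3* at 8.75 ± 3.28 and *Prdm14* at 4.34 ± 1.59 were clear of the rest and of each other.

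In *HOXA13*-overexpressing cultures the ranges per length were narrower. *Pou5f1* was again first with 306 ± 2.19 CPM per kilobase (SD, n = 3), followed by *Nanog* with 211 ± 0.371. *Tfcp2l1* took rank 3 with 175 ± 5.79, against rank 8 in control, and overlapped with *Sox2* at 173 ± 5.74, above it in 2 of 3 libraries. *Klf4* was at 128 ± 5.71, ahead of *Klf2* at 104 ± 6.00 and *Esrrb* at 100.2 ± 1.42, whose ranges overlapped, with *Klf2* above *Esrrb* in 2 of 3 libraries. *Klf5* at 88.3 ± 1.93, *Tbx3* at 34.4 ± 2.50 and *Prdm14* at 8.58 ± 0.981 completed the order without overlap.

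**Figure D4:**
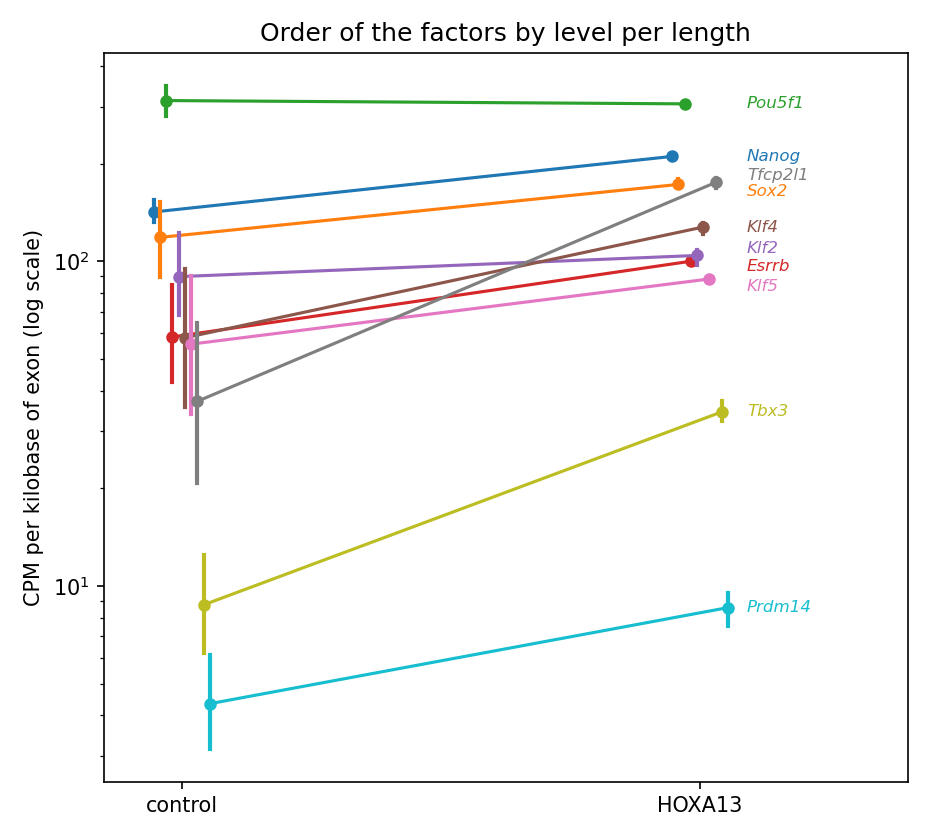
Mean CPM per kilobase of exon on a log axis for each factor in control and HOXA13 (circles), with the range of 3 libraries as a vertical bar and lines joining the same factor. Tfcp2l1 climbs from 37.1 to 175 while Pou5f1 is at 313 and 306.

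The plot of levels per length shows most lines rising without crossing that of *Pou5f1*. The counts of each factor were also divided by those of *Pou5f1* in the same library, which needs no scaling between libraries. *Pou5f1* was picked as the factor with the smallest change in these same libraries, so the ratios restate the changes above on another scale and are no separate support for them. The ratio of *Tfcp2l1* to *Pou5f1* counts ran from 0.303 to 0.764 in control and from 2.25 to 2.44 in *HOXA13*. For *Nanog* it ran from 0.421 to 0.492 and from 0.68 to 0.691, and for *Sox2* from 0.347 to 0.480 and from 0.605 to 0.635. *Klf5* also separated on this measure, with 0.0921 to 0.199 in control and 0.216 to 0.228 in *HOXA13*. For 8 of the 9 factors the ratios did not overlap. Each of these gave a two-sided exact permutation p of 0.1, the smallest that 3 against 3 libraries allow, as any ratio without overlap must. How many of all tested genes would separate on this ratio was not counted. The ratio of *Klf2* did overlap, with 0.200 to 0.288 in control and 0.260 to 0.292 in *HOXA13* (exact p = 0.3).

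As a share of all counts for the 10 factors, *Tfcp2l1* took 9.84% to 17.8% in control and 33.1% to 34.7% in *HOXA13*. *Pou5f1* took 23.2% to 32.5% in control and 14.2% to 14.7% in *HOXA13*. A share falls for any factor that rises less than the total, and *Nanog* went from 13.2% ± 2.83 to 9.93% ± 0.104 (SD, n = 3) although its own CPM was higher.

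Some factors had similar profiles over the 6 libraries, measured as the root mean square difference of log2 CPM after centring each gene on its mean. *Esrrb* and *Klf5* were each other's nearest factor at 0.13, and *Tfcp2l1* and *Tbx3* were each other's nearest at 0.29. *Pou5f1* was the farthest from its nearest factor relative to other genes, with 6732 of 9900 other genes nearer to it than *Klf2*. The nearest single genes outside the 10 were *Pdcl3* for *Nanog* (0.02), *Tmem55b* for *Sox2* (0.05), *Mto1* for *Pou5f1* (0.02), *Btbd11* for *Esrrb* (0.05), *Glud1* for *Klf2* (0.04) and *Mapt* for *Klf4* (0.09). They were *Jam2* for *Klf5* (0.05), *Phf11d* for *Tfcp2l1* (0.11), *D7Ertd143e* for *Tbx3* (0.04) and *Etv4* for *Prdm14* (0.12). These are descriptions over 6 libraries that share one contrast.

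Other genes around the network were counted by list. Of 16 partner factors, which bind or control the same network, 2 were called higher and 4 lower, with a median log2 fold change of -0.07. These are 12.5% and 25%, beside 14.4% higher and 13.3% lower over all tested genes, so the higher share was no larger than that of all genes. The higher were *Zfp281* (0.43, adjusted p = 0.0252) and *Sall4* (0.22, adjusted p = 0.0394), zinc-finger partners of NANOG and OCT4. The lower included *Myc* (-0.99, adjusted p = 0.0091) and *Tcf7l1* (-0.62, adjusted p = 0.00119), the repressor of *Esrrb* named above, which went from 102, 99.2 and 112 CPM in the control replicates to 63.6, 72.6 and 68.2 CPM in the *HOXA13* replicates. Without control replicate 2 the partner counts were 7 higher and 5 lower, and without control replicate 3 they were 0 higher and 4 lower. Leaving out a *HOXA13* replicate gave 0 higher and 1 to 3 lower, *Myc* lost its call without *HOXA13* replicate 1, *Zfp281* also lost its call with each chromosome centred, and *Sall4* with library size alone and with the replicate number as a block.

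On the input side, 6 genes of LIF signalling gave 2 higher and 0 lower (33.3% and 0%, beside 14.4% and 13.3% of all tested genes). There were 4 higher and 0 lower at an unadjusted p under 0.05, also 4 and 0 by limma-voom, and 2 and 0 by DESeq2. The 2 called higher in edgeR were *Jak1*, the kinase that phosphorylates STAT3 (0.50, adjusted p = 0.0163), and *Il6st*, the shared receptor chain gp130 (0.23, adjusted p = 0.0431). Leaving out control replicate 3, *HOXA13* replicate 1 or *HOXA13* replicate 2 gave 0 in both directions, leaving out *HOXA13* replicate 3 gave 1 higher, leaving out control replicate 2 gave 4 higher, and leaving out control replicate 1 gave 1 higher and 1 lower. *Il6st* was called in 8 of 15 alternatives, and its call was also lost with library size alone and with the replicate number as a block. Downstream, 12 genes that OCT4, SOX2 or NANOG are known to drive, or that mark naive cells, split into 5 higher and 5 lower with a median of -0.14. These are 41.7% each, beside 14.4% higher and 13.3% lower over all tested genes. Leaving out 1 library gave 5 to 6 higher and 4 to 6 lower. *Upp1*, uridine phosphorylase, had 145, 69.0 and 76.1 CPM in the control replicates and 363, 360 and 340 CPM in the *HOXA13* replicates (log2 fold change 1.87, adjusted p = 0.00144). *Dppa3* (STELLA), a maternal factor of naive cells, rose by 1.17 (adjusted p = 0.000395). *Trh*, the thyrotropin-releasing hormone gene, had 803, 430.3 and 635 CPM in the control replicates and 30.1, 28.4 and 32.5 CPM in the *HOXA13* replicates (-4.36, adjusted p = 1.71e-05). *Lefty1*, a NODAL antagonist, fell by 1.69 on the log2 scale (adjusted p = 0.000456).

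Among 25 relatives of the same families as the 10 factors, 21 were tested, with 5 higher and 3 lower and a median of 0.14. These are 23.8% and 14.3%, beside 14.4% higher and 13.3% lower over all tested genes, so the lower share was close to that of all genes. *Sox15*, a close relative of *Sox2*, rose by 1.14 on the log2 scale (adjusted p = 0.000787) and *Klf8* by 0.82 (adjusted p = 0.000496). *Sox3*, the neural relative of *Sox2*, had 5.44, 2.17 and 6.27 CPM in the control replicates and 0.102, 0.33 and 0.0756 CPM in the *HOXA13* replicates, so its *HOXA13* values lie at or near the floor. *Pou3f1* (OCT6), the POU factor of later epiblast, had 25.7, 12.0 and 20.7 CPM in control and 1.42, 1.98 and 2.27 CPM in *HOXA13* (-3.39, adjusted p = 0.00026). Leaving out control replicate 3 or any *HOXA13* replicate gave 3 higher and 3 lower, leaving out control replicate 2 gave 7 higher and 3 lower, and *Sox15*, *Klf8* and *Pou3f1* were called in all 15 alternatives.

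**Figure D5:**
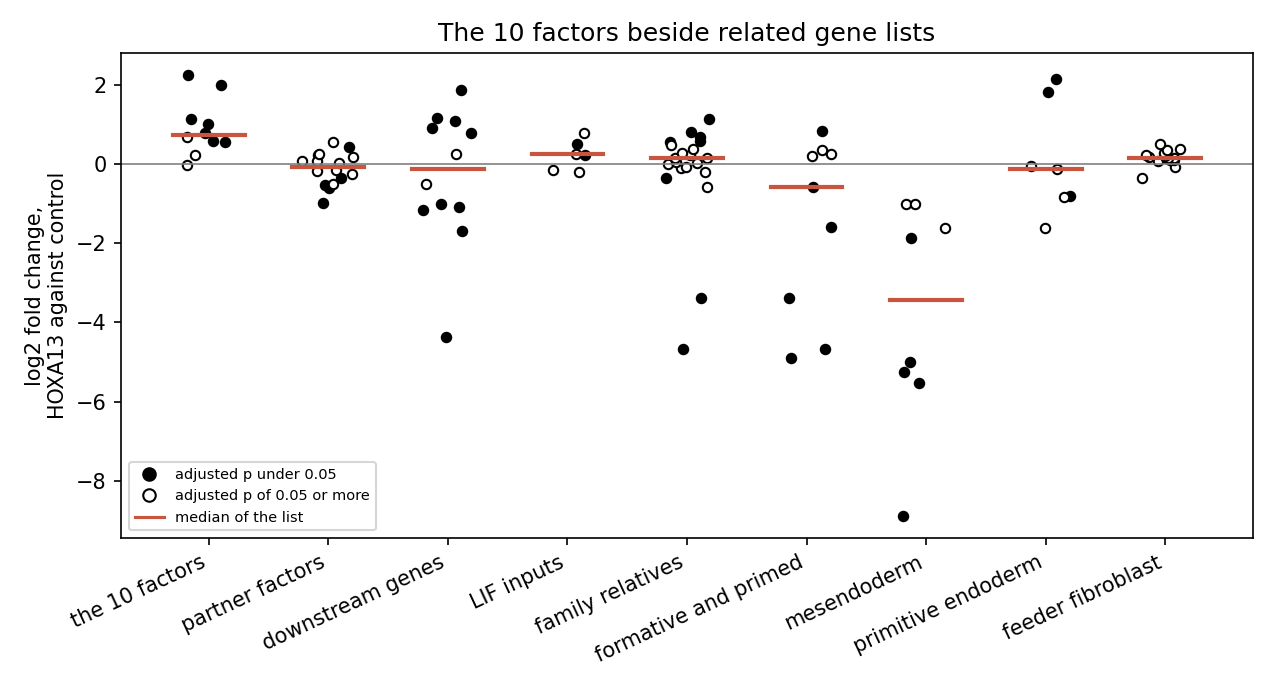
Log2 fold change, HOXA13 against control, of each tested gene in 9 lists, with filled circles at an adjusted p under 0.05 and a red line at the median of each list. The 10 factors have the highest median, 0.73, and mesendoderm genes the lowest, -3.44. Factors and lists were chosen with earlier results of these data known. The lowest point is the fitted value of Fgf8, whose HOXA13 libraries are under the floor.

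The plot of related lists places the 10 factors beside genes of the next states. Of 9 formative and primed genes, which come on as naive cells move on, 1 was higher and 5 lower (11.1% and 55.6%, beside 14.4% and 13.3% of all tested genes), with a median of -0.59, but 0 were higher without control replicate 3 or any *HOXA13* replicate, 2 without control replicate 1 and 1 without control replicate 2. *Etv4*, an FGF-responsive ETS factor, rose by 0.84 (adjusted p = 0.0142), while *Fgf5*, a marker of formative epiblast, went from 36.3, 6.25 and 23.8 CPM in the control replicates to 0.965, 0.605 and 0.605 CPM (-4.90, adjusted p = 0.0017). Control replicate 2 again lay between the other controls and the *HOXA13* libraries for *Fgf5*. Of 8 primitive endoderm genes, markers of the sister lineage that NANOG represses, 7 were tested and gave 2 higher and 1 lower (28.6% and 14.3%, beside 14.4% and 13.3% of all tested genes). *Sox7* (2.14, adjusted p = 0.0126) and *Gata6* (1.80, adjusted p = 0.000391) were the higher, with *Gata6* at 3.92, 2.85 and 2.58 CPM in control and 10.4, 11.8 and 10.7 CPM in *HOXA13*. *Pdgfra*, a surface receptor of the lineage and of fibroblasts, fell by 0.80 on the log2 scale (adjusted p = 0.0192). Leaving out a library gave 1 to 2 higher and 0 to 3 lower in this list. *Gata6* was called in all 15 alternatives, *Sox7* was not called without any 1 of the *HOXA13* replicates, and *Pdgfra* lost its call without control replicate 3, *HOXA13* replicate 1 or *HOXA13* replicate 2.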

How the data were processed

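RNA of 6 KH2 cultures was isolated, poly-A selected and made into stranded libraries by the authors. Per the submitters' notes, bcl2fastq 2.17, TopHat2 2.0.14 and HTSeq 0.6.1p1 were used with mm9, and the authors deposited whole-number counts per gene, without normalization, in 1 table per library. The annotation and strand setting are not given in the sources used here, and the study's text names another Tophat version. Reads of multi-copy sequence depend on those settings.

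The counts were filtered (filterByExpr defaults, a minimum count of 10 and a total of 15), TMM scaled and tested with edgeR 4.0.16 in R 4.3.3, with Benjamini-Hochberg adjustment at 0.05 and no covariate. The fitting code was run on simulated counts with the same spread in both groups, which does not cover the unequal spread seen here. Intervals are 95% intervals from the same fit. P-values measure the spread between these cultures, which the labels do not tie to separate clones. DESeq2 1.42.0, which the study's methods name, and limma-voom (limma 3.58.1) were alternatives, with other scalings, filters, a replicate block, a robust fit, chromosome centring and each library left out in turn. Positions and exon lengths are from GENCODE on mm9. Copies elsewhere were searched with minimap2 2.31 (at least 300 matching bases and 90% identity). Figures were drawn with matplotlib 3.10.9.

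Members and lists were chosen with earlier results of these data known. Named genes are the 10 factors, at most the 2 called genes with the largest and the 2 with the smallest log2 fold change of each list, and the gene with the nearest profile to each factor among those with a mean log2 CPM of at least 3. *Mesp1*, *Cer1*, *Lhx1* and *Sox17* of the mesendoderm list fall outside this rule and were named after their values were seen.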

Additional observations from a re-analysis of the deposited data

How the results depend on the processing

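The count of factors called higher, 7 with all 6 libraries, ran from 3 to 9 when 1 library was left out, and the calls over all genes ran from 2038 to 5007 beside 3836. No factor was called lower in any of the 15 alternatives. The replicate numbers did not pair the samples (correlations of deviations from -0.05 to 0.02), and with the replicate number as a block 3172 genes and 7 of the factors were called. All directions were kept in all 15 alternatives for 9 factors, and in 14 for *Pou5f1*, which was never called and lay between -0.11 and 0.04 on the log2 scale. *Klf2* and *Klf5* were called only without control replicate 2. Within a library, taking each factor as a share of the counts for all 10 instead of a ratio to *Pou5f1* turned the log2 difference to -0.39 for *Nanog*, -0.39 for *Sox2*, -0.12 for *Esrrb*, -0.16 for *Klf5* and -0.70 for *Klf2*, whose ratio had differed by 0.29. It was 0.30 for *Klf4*, 0.08 for *Prdm14*, 1.46 for *Tfcp2l1* and 1.07 for *Tbx3*. This step moves every factor by the same amount, the share difference of *Pou5f1* itself (-0.99), so it says nothing about single factors. The lowest value of any factor was 8.08 CPM, against a floor of at most 0.227 CPM, and how depth limits the calls was not tested.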
